A study of Mus musculus with 20 samples.

Results

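Mammary glands of 7 tamoxifen-treated mice in which no mammary tumor was found were compared with glands of 7 placebo-treated mice that later had one, as 14 of the 20 arrays in the study. The 14 were taken from the labels by treatment and later outcome. All animals were FVB/N females heterozygous for the NRL-TGFa transgene, from 1 line, so that both groups carried the transgene and no animal without it was measured. NRL is the promoter of the neu-related lipocalin gene, which is active in mammary epithelium, and TGFα is a ligand of the epidermal growth factor (EGF) receptor. The tamoxifen animals received a subcutaneous implant with 5 mg tamoxifen at 8.5 weeks of age, and the placebo animals received the carrier without drug at the same age. A nontumorous number 4 gland was removed at 20.5 to 21 weeks of age, 4 weeks after treatment had ended, and the animals were observed for tumors up to 2 years of age. The outcome therefore belongs to the animal and not to the tissue on the array. Treatment and outcome differ together between these 7 and 7 animals and cannot be told apart in the comparison. The other 6 glands, 3 from tamoxifen animals with tumors and 3 from placebo animals without, are given as ranges beside some of the results.

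The mammary ducts consist of an inner luminal layer and an outer basal layer of contractile myoepithelial cells, which rest on a basement membrane within connective tissue and fat. The luminal layer holds hormone-sensing cells, which carry the oestrogen receptor, and progenitor cells without it, which give rise to the milk-secreting alveolar cells. Tamoxifen is a selective oestrogen receptor modulator. The number 4 gland of the mouse also holds a lymph node and lies against the muscle of the body wall. The sources used here do not say whether the node was taken out. In such bulk RNA, fewer cells of a type and less RNA per cell cannot be told apart.

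Values are the authors' log2 RMA values per probe set, with 1 probe set per gene, and a difference of 1 on this scale is 2-fold. A gene is called when the adjusted p-value of limma is below 0.05 over the 12499 genes tested. Of these, 579 were called (4.63%), 279 higher in the tamoxifen no-tumor glands (2.23%) and 300 lower (2.4%). The median difference of all genes tested was 0.01. The called genes fell by a median of 0.53 on the log2 scale or rose by a median of 0.37, and 53 fell and 20 rose by more than 2-fold. The casein list accounted for 4 of the genes that fell and the skeletal muscle list for 19 that rose and 3 that fell, which left 293 lower and 260 higher genes outside both lists. The 19 became 5 without placebo animal 8, 6 without placebo animal 9 and 7 without tamoxifen animal 3 or 9. They became 4 when only the 14 arrays compared were fitted, in place of all 20. The values of the 7 and 7 glands did not overlap at all for 169 called genes, 133 lower and 36 higher. Over all genes tested, 1.45% had groups that did not overlap.

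The arrays had medians of 6.82 to 6.89 and correlated pairwise at 0.977 to 0.997. Placebo animals 7 and 8, both with later tumors, stood apart on the first principal component, at -30.94 and -41.13, and it held 31.9% of the variance. Placebo animal 9 came next at -14.64, and the other 17 arrays lay between -7.19 and 12.65. Placebo animals 7, 8 and 9 held the highest means of the pan-epithelial list, at 1.22, 1.19 and 0.56 log2 units above the mean of the 20 arrays, against 0.09 to 0.28 in the other 4 placebo tumor glands. Without these 3 glands, 141 genes were called (1.13%), 20 higher and 121 lower, and 125 of them were among the 579 with the same direction.

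**Figure D1:**
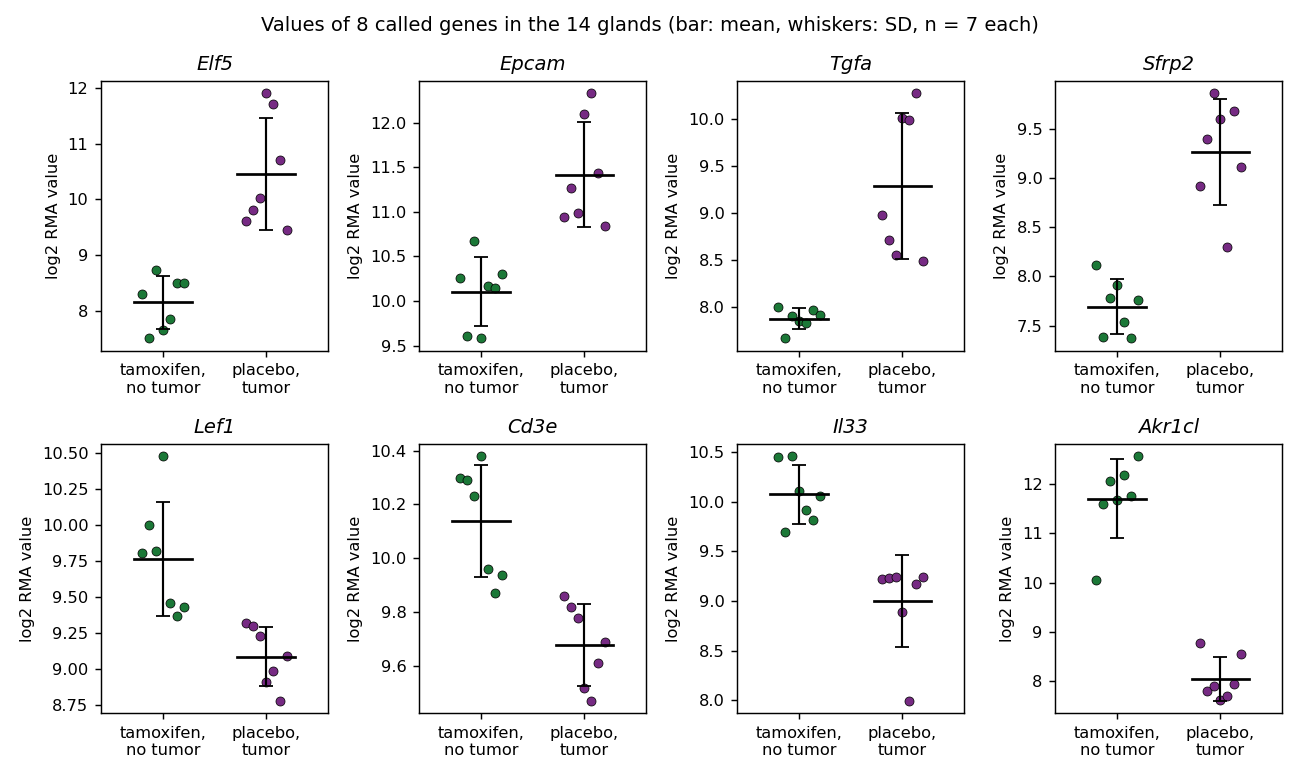
Log2 RMA values of 8 called genes in each gland, with tamoxifen no-tumor glands on the left of each panel (green, 7 animals) and placebo tumor glands on the right (purple, 7 animals). Horizontal bars are means and whiskers are SD. The 2 groups do not overlap in any of the 8 panels. Cd3e and Lef1 are the only 2 of 20 tested T cell genes without overlap.

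Genes of the luminal progenitor and of epithelial cells in general were lower in the tamoxifen no-tumor glands. Of 22 tested pan-epithelial genes, 15 fell and none rose, with a median difference of -0.94, and all 22 differences were negative. When only the 14 arrays compared were fitted, 8 of the 22 fell. Of 11 tested luminal progenitor genes, 5 fell and none rose, with a median of -0.53. Of all genes tested, 2.4% fell. The placebo no-tumor glands were as low in both lists. Their pan-epithelial list mean lay at -0.64 to -0.11, against -0.61 to 0.07 in tamoxifen no-tumor and 0.09 to 1.22 in placebo tumor glands. Their luminal progenitor list mean lay at -0.71 to -0.05, against -0.58 to -0.05 and 0.09 to 1.18. Tamoxifen tumor glands lay at -0.19 to 0.01 and at -0.18 to -0.01 in the 2 lists. Elf5, a transcription factor of luminal progenitors and of the alveolar lineage, ran from 7.51 over a median of 8.31 to 8.74 in tamoxifen no-tumor glands, against 9.46, 10.03 and 11.9 in placebo tumor glands. The groups did not overlap, and the fit gave a difference of -2.31 (SE 0.35, 4.95-fold lower, adjusted p = 0.00116). The lowest placebo tumor value of Elf5 belonged to animal 10, at 9.46, and the highest tamoxifen no-tumor value to animal 5, at 8.74. In the other groups Elf5 lay at 8.94 to 9.11 in tamoxifen tumor glands and at 7.95 to 9.3 in placebo no-tumor glands.

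Epcam, an adhesion molecule of nearly all epithelia, lay at 9.58, 10.17 and 10.67 (lowest, median and highest) in tamoxifen no-tumor glands and at 10.84, 11.27 and 12.33 in placebo tumor glands. Every tamoxifen no-tumor gland was below every placebo tumor gland, and the difference was -1.31 (SE 0.23, adjusted p = 0.00388). A second Epcam probe set with a lower mean gave -0.13. Cldn7, a tight junction claudin, likewise did not overlap, at 6.85, 7.29 and 7.7 in tamoxifen no-tumor glands against 7.85, 8.18 and 10.16 in placebo tumor glands, a difference of -1.46 (adjusted p = 0.0153). Esrp1, an epithelial splicing regulator, fell 3.08-fold (adjusted p = 0.00729), with both groups separate. The luminal keratins Krt18 and Krt19 fell by 0.95 and 1.34 on the log2 scale, with 1 and 2 of the 7 tamoxifen no-tumor values inside the placebo tumor range. Krt8, the partner of Krt18, fell by 0.94 and stayed just within the threshold (adjusted p = 0.0472).

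The remaining luminal progenitor genes differed in how cleanly they separated the groups. Plet1, a surface protein found on luminal progenitors, fell by 2.01 on the log2 scale with no overlap (adjusted p = 0.00265). Lcn2, the mouse lipocalin that binds bacterial siderophores, fell by 1.56 with no overlap (adjusted p = 0.00785). Wfdc18, a secreted protein with a whey acidic protein domain, ran from 8.9 to 10.71 in tamoxifen no-tumor glands and from 9.97 to 13.56 in placebo tumor glands, a difference of -2.33 (adjusted p = 0.012). Cd14, the lipopolysaccharide co-receptor, fell by 0.76 (adjusted p = 0.0152). Kit, the receptor of stem cell factor and a classic progenitor marker, had a difference of -0.53 that did not pass (adjusted p = 0.108).

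Hormone-sensing and basal genes gave fewer calls. Of 10 tested hormone-sensing luminal genes, Gata3 and Wnt4 fell, by 0.83 and 0.55 on the log2 scale. Gata3 is a transcription factor of the luminal lineage and Wnt4 a ligand that acts downstream of progesterone. Esr1, the oestrogen receptor, had a difference of -0.4 (adjusted p = 0.171) and Pgr, the progesterone receptor, of 0.21 (adjusted p = 0.66). Of 9 basal genes only Lamb3, a laminin chain, fell (difference -0.81, adjusted p = 0.0335). The basal keratins Krt5 and Krt14 had differences of -0.64 and -0.51 with adjusted p-values of 0.163 and 0.298. In the contractile list, Myh11 and Cnn1 fell by 0.41 and 0.65 with no overlap, while Acta2 had a difference of -0.47 (adjusted p = 0.0544). In these 3 lists that is 2 of 10, 1 of 9 and 2 of 9 genes lower, against 2.4% of all genes tested.

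Regulators of epithelial identity fell with these markers, in 2 lists that were put together after values had been seen. Of 16 tested epithelial transcription factors, 8 fell and none rose, with a median of -0.72, against 2.4% of all genes tested that fell. With the filter on dim genes set to at least 7 arrays, 6 of 14 fell, and with no such filter 5 of 16. When only the 14 arrays compared were fitted, 3 of 16 fell. The 8 became 4 without placebo animal 8 or tamoxifen animal 4 or 6, and 5 when placebo animal 7 or 9, or tamoxifen animal 3, 7 or 9, was left out. Without placebo animals 7, 8 and 9 together they became 3, with a median of -0.3. Tfap2c, which encodes the factor AP-2 gamma, lay at 6.58, 6.83 and 6.94 in tamoxifen no-tumor glands and at 7.72, 8.25 and 10.14 in placebo tumor glands. The groups were separate, with a difference of -1.76 (SE 0.32, adjusted p = 0.00453). Grhl1, a grainyhead-like factor of barrier epithelia, Irx2, an Iroquois homeobox factor, and Trps1, a repressor of the GATA family, fell by 1.37, 1.37 and 1.08 on the log2 scale. Of 19 tested genes of epithelial polarity, junctions and channels, 14 fell. The 14 became 7 without placebo animal 8, 8 when placebo animal 7 or 9, or tamoxifen animal 3, 4 or 6, was left out, and 9 without tamoxifen animal 5 or 7. They became 4 without placebo animals 7, 8 and 9 together, and 6 when only the arrays compared were fitted. With the filter on dim genes set to at least 7 arrays, 8 of 15 tested genes fell, and with no such filter 10 of 19. The genes called as reported include Ano1, a calcium-activated chloride channel (difference -0.82, no overlap, adjusted p = 0.00263). The tight junction gene Cldn8 fell by 1.56, and Scnn1b, a subunit of the epithelial sodium channel, by 0.53. Gjb2, which encodes a connexin of gap junctions, fell by 1.97, with placebo tumor values spread from 6.58 to 10.83. Gjb2 and Scnn1b passed the filter on dim genes only through the placebo tumor glands, where they are high, so that their calls are in part fixed by the filter.

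The promoters of 3 genes are shown because their genes stand for the epithelial and T cell differences and because each holds a match to the motif of a factor named here. The windows are RefSeq promoter sequences of build GRCm38.p6, and all 3 lie on the plus strand, with the match in capitals. STAT5, the factor that acts downstream of the prolactin receptor, was searched as TTCNNNGAA, AP-2 as GCCNNNGGC and LEF1 as CTTTGAT, each on both strands. The windows are Cldn7 at chr11:69965171-69965470 with a STAT5 match from position -185 relative to the gene start, Krt18 at chr15:102027966-102028265 with an AP-2 match from -83, and Cd3d at chr9:44981536-44981835 with a LEF1 match from -55, on the minus strand.
Cldn7: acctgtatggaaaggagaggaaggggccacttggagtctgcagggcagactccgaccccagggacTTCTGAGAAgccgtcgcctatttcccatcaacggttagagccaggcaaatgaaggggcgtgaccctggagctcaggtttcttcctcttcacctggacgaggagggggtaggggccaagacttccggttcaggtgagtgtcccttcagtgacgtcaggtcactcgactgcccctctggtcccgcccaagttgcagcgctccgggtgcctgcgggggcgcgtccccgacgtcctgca
Krt18: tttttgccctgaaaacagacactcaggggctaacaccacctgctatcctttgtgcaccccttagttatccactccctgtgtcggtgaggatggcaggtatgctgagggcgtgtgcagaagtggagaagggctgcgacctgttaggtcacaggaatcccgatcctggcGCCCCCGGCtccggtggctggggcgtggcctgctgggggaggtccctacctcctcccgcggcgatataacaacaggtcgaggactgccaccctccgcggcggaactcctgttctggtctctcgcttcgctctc
Cd3d: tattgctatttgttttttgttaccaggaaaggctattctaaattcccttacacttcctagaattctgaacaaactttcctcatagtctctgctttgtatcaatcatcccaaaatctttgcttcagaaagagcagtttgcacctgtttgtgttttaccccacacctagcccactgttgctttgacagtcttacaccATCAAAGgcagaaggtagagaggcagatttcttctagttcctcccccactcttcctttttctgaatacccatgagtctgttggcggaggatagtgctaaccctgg
These motifs were about as frequent near called genes as near all genes. A STAT5 match stood in 8.25% of the 303 windows of genes that rose and in 5.9% of the 305 windows of genes that fell, against 6.75% of the 12825 windows of all genes tested. An AP-2 match stood in 23.4% and 26.2%, against 24.7%, and a LEF1 match in 2.31% and 1.97%, against 2.61%. The matches are descriptions of these letters in these windows.

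Milk genes other than the caseins were also lower. Of 12 tested genes of whey and the milk fat globule, 6 fell and none rose, with a median of -1.02, against 2.4% of all genes tested that fell. Muc15, a mucin of the milk fat globule membrane, lay at 7.17, 7.84 and 8.56 in tamoxifen no-tumor glands and at 9.05, 10.6 and 12.75 in placebo tumor glands. With a difference of -2.94 (SE 0.48, 7.69-fold, adjusted p = 0.00182) and no overlap, it fell furthest among genes outside the casein and muscle lists. Btn1a1, or butyrophilin, which wraps secreted milk fat, fell by 2.11 with no overlap (adjusted p = 0.000703). Folr1, a folate receptor, and Muc1, an apical mucin, fell by 1.54 and 0.8, and their tamoxifen no-tumor values spanned only 6.15 to 6.42 and 6.39 to 6.78, below the filter level of 6.85. Both passed that filter only through the placebo tumor glands. Lalba, the lactose synthase subunit alpha-lactalbumin, and Cel, a milk lipase, fell by 1.32 and 1.25. Of 12 milk transporters 4 fell, among them Slc28a3, a nucleoside transporter (-1.67, no overlap), and Slc12a2, the sodium, potassium and chloride cotransporter (-0.98).

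**Figure D2:**
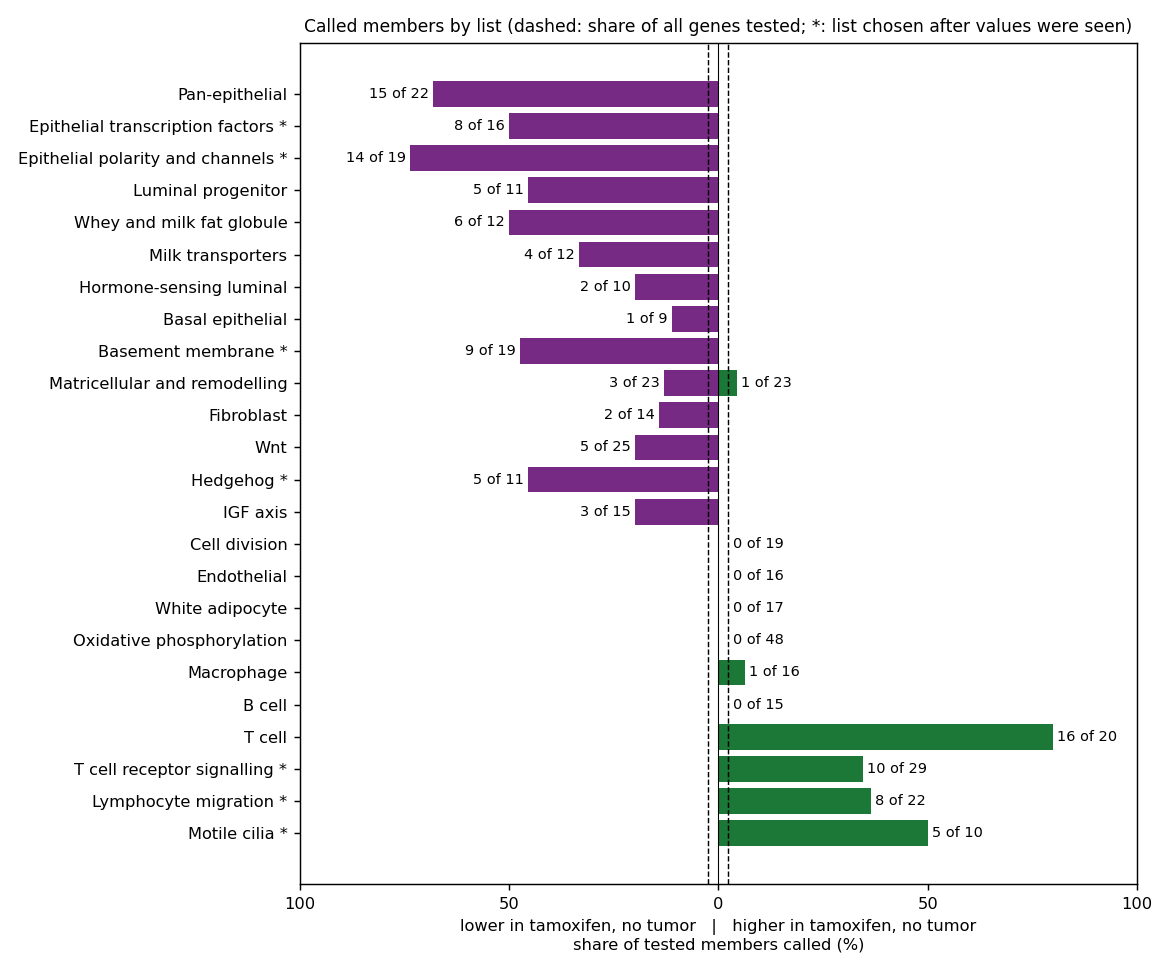
Share of each list's tested members called lower (left, purple) or higher (right, green) in tamoxifen no-tumor glands than in placebo tumor glands, with the counts beside the bars. Dashed lines mark the shares of all 12499 genes tested, 2.4% lower and 2.23% higher; the pan-epithelial list has 15 of 22 members lower and the T cell list 16 of 20 higher.

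Among growth factor pathways, the EGF receptor ligand Tgfa itself was lower. It lay at 7.67, 7.91 and 8.0 in tamoxifen no-tumor glands and at 8.49, 8.98 and 10.27 in placebo tumor glands, with placebo animals 7, 8 and 9 the only ones near or above 10. The difference was -1.4 (SE 0.24, 2.64-fold, adjusted p = 0.00304), and without those 3 animals it was -0.8 (adjusted p = 0.00129). The other 2 probe sets of Tgfa differed. One with a mean of 6.71 over the 20 arrays gave 0.27 in a limma fit of all probe sets (adjusted p = 0.0289), and one with a mean of 7.46 gave -0.23 (adjusted p = 0.0888). Whether any of the 3 probe sets reads the transgene's RNA was not tested. Of 13 tested EGF family genes the receptor Erbb3 also fell (-0.73, adjusted p = 0.0368), and of 15 genes of prolactin signalling Stat5a fell (-0.36, adjusted p = 0.028). Of 33 genes of protein export through the endoplasmic reticulum, 2 fell. They were Pdia6, a disulfide isomerase (-0.49, no overlap), and Xbp1, a factor of the unfolded protein response and of secretory cells (-0.36). In these 3 lists that is 2 of 13, 1 of 15 and 2 of 33 genes lower, against 2.4% of all genes tested. The other 11, 14 and 31 genes were not called.

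Wnt, Hedgehog and IGF pathway genes were lower in part. Of 25 Wnt genes 5 fell and none rose. Sfrp2, a secreted modulator of Wnt signalling, lay at 7.37, 7.76 and 8.12 in tamoxifen no-tumor glands and at 8.3, 9.4 and 9.86 in placebo tumor glands, with no overlap. Its difference of -1.57 (SE 0.21, adjusted p = 0.000517) was -1.63 without placebo animals 7, 8 and 9. Wnt2, a ligand, fell by 0.92 with no overlap and Fzd7, a receptor, by 0.62, while Fzd2 and Fzd6 fell as well. Of 11 Hedgehog genes, in a list chosen after values were seen, 5 fell. They were the co-receptors Gas1 and Boc, the transcription factors Gli2 and Gli3, and Evc2, a protein of the primary cilium. Gas1 lay at 10.05, 10.17 and 10.33 in tamoxifen no-tumor glands and at 10.54, 10.99 and 11.31 in placebo tumor glands (difference -0.72, SE 0.1, adjusted p = 0.000787). The other Hedgehog differences were smaller, between -0.25 for Gli2 and -0.34 for Boc. Of 15 genes of the insulin-like growth factor axis, the binding protein Igfbp5, the cell-surface proteoglycan Gpc3 and the protease Pappa fell, by 0.54, 0.67 and 0.3. The Notch and TGFβ lists gave few calls. Of 14 Notch genes 1 fell, the ligand Dll1 (by 0.24). Of 21 TGFβ and BMP genes 1 fell, the ligand Tgfb3 (by 0.54), and 1 rose, the inhibitor Smad7 (by 0.31), against 2.4% lower and 2.23% higher of all genes tested.

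Matrix genes were lower in part. None of the 16 genes of the collagen list was called, nor was a single gene of the endothelial (16), pericyte (6) and white adipocyte (17) lists. In a limma fit of all probe sets, the Col18a1 probe set used gave -0.56 (adjusted p = 0.0608). A second Col18a1 probe set with a lower mean also gave -0.56 there (adjusted p = 0.0288). Of 23 matricellular and remodelling genes Postn, Hmcn1 and Fn1 fell and Thbs2 rose. Postn, or periostin, a stromal matrix protein, lay at 11.21, 11.51 and 11.63 in tamoxifen no-tumor glands and at 12.03, 12.68 and 13.23 in placebo tumor glands (difference -1.07, SE 0.16, adjusted p = 0.000952). Fn1, or fibronectin, fell by 0.85 and Hmcn1, or hemicentin, by 0.83, both with no overlap. Thbs2, or thrombospondin-2, ran from 10.06 to 11.11 in tamoxifen no-tumor glands and from 9.42 to 10.18 in placebo tumor glands (difference 0.8, adjusted p = 0.00799). Of 14 fibroblast genes, Lum and Fbln1 fell, by 0.51 and 0.52. In the matricellular and fibroblast lists that is 3 of 23 and 2 of 14 genes lower, against 2.4% of all genes tested. In a list of basement membrane genes chosen after values were seen, 9 of 19 fell and none rose. The laminin chain Lama2 fell by 0.63, Lamc3 by 0.58, the integrin Itga8 by 0.94 and the collagen chain Col4a5 by 1.04, all with no overlap.

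Further genes that fell belong to the lists of chemokines, defence proteins and metabolism, or to none. Cxcl15, or lungkine, a chemokine, lay at 6.26, 6.74 and 7.33 in tamoxifen no-tumor glands and at 8.68, 9.49 and 10.49 in placebo tumor glands. Its difference of -2.7 (SE 0.33, 6.49-fold, adjusted p = 0.000358) was -2.99 without placebo animals 7, 8 and 9. In the other groups it ran from 7.93 to 10.0 in tamoxifen tumor glands and from 7.48 to 8.79 in placebo no-tumor glands. Tph1, the rate-limiting enzyme of serotonin synthesis outside the brain, fell by 2.08, and Fam20a, a pseudokinase of the secretory pathway, by 1.81. The mitochondrial arginase Arg2 fell by 1.64, and none of these 3 genes overlapped between the groups. The chemokine Cxcl14 fell by 0.5, the glycolytic enzyme Aldoc by 1.18 and the fatty acid desaturases Fads1 and Fads2 by 0.36 and 0.78. The chitinase-like protein Chil1 fell by 1.41 and the copper carrier Cp by 0.58, while the acute-phase glycoprotein Lrg1 rose by 0.87. In the Schwann cell list Sox10 and Egr2 fell and S100b rose. Igha, the constant region of immunoglobulin A heavy chains, lay at 9.07, 9.89 and 11.19 in tamoxifen no-tumor glands and at 11.22, 11.62 and 12.42 in placebo tumor glands (difference -1.58, SE 0.33, adjusted p = 0.0113). The only call among 10 plasma cell genes was Fkbp11, a folding enzyme of secretory cells, which fell by 0.86. In that list 1 of 10 genes was lower, against 2.4% of all genes tested.

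No gene of the cell division list was called among 19 tested. Its median difference was -0.52, and placebo animal 8 stood at 2.16 in the mean of that list, against -0.35 to 0.4 in the other placebo tumor glands and -0.42 to 0.01 in tamoxifen no-tumor glands. Mki67, the proliferation antigen, ran from 7.01 to 8.11 in tamoxifen no-tumor glands and from 7.07 to 10.77 in placebo tumor glands (difference -0.81, adjusted p = 0.27). Without placebo animals 7, 8 and 9 its difference was -0.05. Of 19 DNA replication genes none was called either.

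T cell genes were higher in the tamoxifen no-tumor glands. Of 20 tested T cell genes 16 rose and none fell, with a median difference of 0.6, against 2.23% of all genes tested. When only the 14 arrays compared were fitted, in place of all 20, 6 of these genes rose. The T cell list mean lay at -0.26 to 0.68 in tamoxifen no-tumor glands and at -0.58 to -0.04 in placebo tumor glands. It lay at 0.09 to 0.14 in tamoxifen tumor glands and at 0.01 to 0.31 in placebo no-tumor glands. Both of these groups were thus above every placebo tumor gland. Only 2 of the 20 genes, Cd3e and Lef1, had groups that did not overlap. Cd3e, a chain of the T cell receptor complex, lay at 9.87, 10.23 and 10.38 in tamoxifen no-tumor glands and at 9.47, 9.69 and 9.86 in placebo tumor glands. The groups did not overlap, although the nearest values were 9.87 and 9.86, and the difference was 0.46 (SE 0.08, 1.37-fold, adjusted p = 0.00506). In the other groups Cd3e lay at 10.04 to 10.11 in tamoxifen tumor glands and at 9.87 to 10.08 in placebo no-tumor glands, all at or above the highest placebo tumor value. Lef1, a transcription factor of naive T cells and of Wnt signalling, lay at 9.37, 9.81 and 10.48 in tamoxifen no-tumor glands and at 8.78, 9.09 and 9.32 in placebo tumor glands (difference 0.68, SE 0.14, adjusted p = 0.0119). Ccr7, the receptor that guides naive T cells and dendritic cells to lymph nodes, rose by 0.77, and Satb1, a chromatin organizer of developing T cells, by 0.71.

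The called genes included co-receptors of both main T cell lineages and chains of the receptor. The co-receptors Cd4, Cd8a and Cd8b1 rose by 0.5, 0.52 and 0.58, and the receptor chains Cd3d, Cd3g and Cd247 by 0.63, 0.65 and 0.73. Zap70, the receptor's kinase, was not called on the probe set used (adjusted p = 0.994), while its most variable probe set gave 0.41 (adjusted p = 0.0177). In 2 further lists, chosen after values were seen, 10 of 29 genes of T cell receptor signalling and 8 of 22 genes of lymphocyte migration rose and none fell, against 2.23% of all genes tested that rose. Fitting only the 14 arrays compared gave 5 and 1 calls in these lists. Leaving out 1 animal gave 6 to 18 and 1 to 19 calls. The 10 became 6 without placebo animal 8 or tamoxifen animal 3, 4 or 6, and 18 without tamoxifen animal 8. The 8 became 1 without placebo animal 7 or tamoxifen animal 4, 2 when placebo animal 8 or 9, or tamoxifen animal 3 or 6, was left out, and 3 without tamoxifen animal 5. They became 13 without tamoxifen animal 7 and 19 without tamoxifen animal 8. Both lists had no call without placebo animals 7, 8 and 9 together. The genes called as reported include the co-stimulatory receptor Cd27 (0.74), the adaptor Skap1 (0.6) and the actin regulator Coro1a (0.52). The lymphoid transcription factors Ikzf1 and Ets1 rose by 0.5 and 0.55.

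Other immune lists were called in few members. Of 15 B cell genes none passed, although all 15 differences were positive, with a median of 0.42. Without tamoxifen animal 8 there were 5 that rose, and without tamoxifen animal 9 there were 2. Cd79a, a chain of the B cell receptor, ran from 9.1 to 10.66 in tamoxifen no-tumor glands and from 8.73 to 9.41 in placebo tumor glands (difference 0.58, adjusted p = 0.0968). Ms4a1, the B cell antigen CD20, had a difference of 0.37 (adjusted p = 0.311). The cytokines Ltb and Lta, which organize lymphoid tissue, rose by 0.54 and 0.37. The dendritic cell genes Ccl22, a chemokine, and Flt3, a growth factor receptor, rose by 0.67 and 0.22. Of 16 macrophage genes 1 rose, the scavenger receptor Marco (0.84, adjusted p = 0.0481), against 2.23% of all genes tested. No gene of the interferon (19), class II antigen presentation (7) or cytotoxic (9) lists was called. Prtn3, which encodes the neutrophil granule protease proteinase 3, lay at 8.76, 10.66 and 10.96 in tamoxifen no-tumor glands and at 6.85, 7.81 and 8.95 in placebo tumor glands (difference 2.52, SE 0.35, adjusted p = 0.000694). Prtn3 was the only 1 of 7 tested neutrophil genes that rose, against 2.23% of all genes tested. Of the 7 differences 6 were positive, with a median of 0.22. The list mean, which includes Prtn3, lay at 0.1 to 0.63 in tamoxifen no-tumor glands and at -0.52 to 0.09 in placebo tumor glands. The 1 negative difference was that of Elane, the elastase of the same granules, at -0.01 (adjusted p = 0.925).

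**Figure D3:**
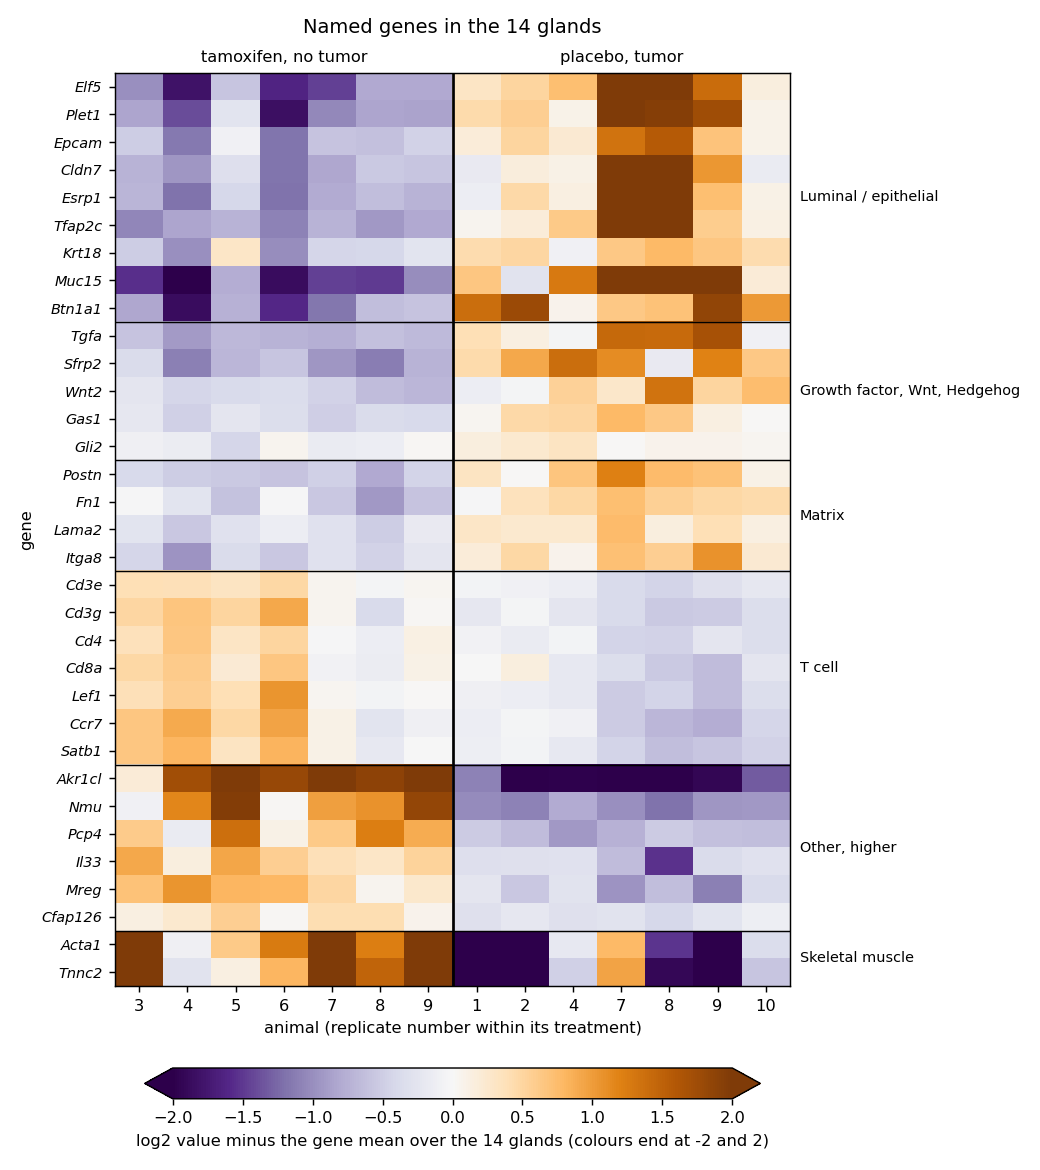
Named genes (rows) in the 14 glands (columns), tamoxifen no-tumor animals on the left and placebo tumor animals on the right, each numbered within its treatment. Colour gives the log2 value minus the gene's mean over the 14 glands, orange above and purple below; placebo animals 7 and 8 carry the darkest orange for Elf5, Cldn7, Esrp1 and Tfap2c, and tamoxifen animals 3 to 6 are darker than animals 7 to 9 in the T cell block.

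The T cell signal was uneven among the tamoxifen no-tumor animals. The T cell list mean was 0.41, 0.6, 0.29 and 0.68 in tamoxifen animals 3, 4, 5 and 6, and -0.05, -0.26 and -0.06 in animals 7, 8 and 9, against -0.58 to -0.04 in placebo tumor glands. Animals 7, 8 and 9 thus lay within or close to the placebo tumor range. The skeletal muscle list mean had another order, at 0.9, 0.55 and 0.27 in tamoxifen animals 7, 9 and 8 and at 0.33, -0.08, -0.01 and 0.01 in animals 3, 4, 5 and 6, against -0.37 to 0.02 in placebo tumor glands. The B cell list mean was 0.51, 0.89, 0.34 and 0.25 in tamoxifen animals 3 to 6 and -0.16, -0.38 and -0.25 in animals 7 to 9, against -0.59 to -0.08 in placebo tumor glands. The part of lymph node, muscle and epithelium in these glands was not tested.

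**Figure D4:**
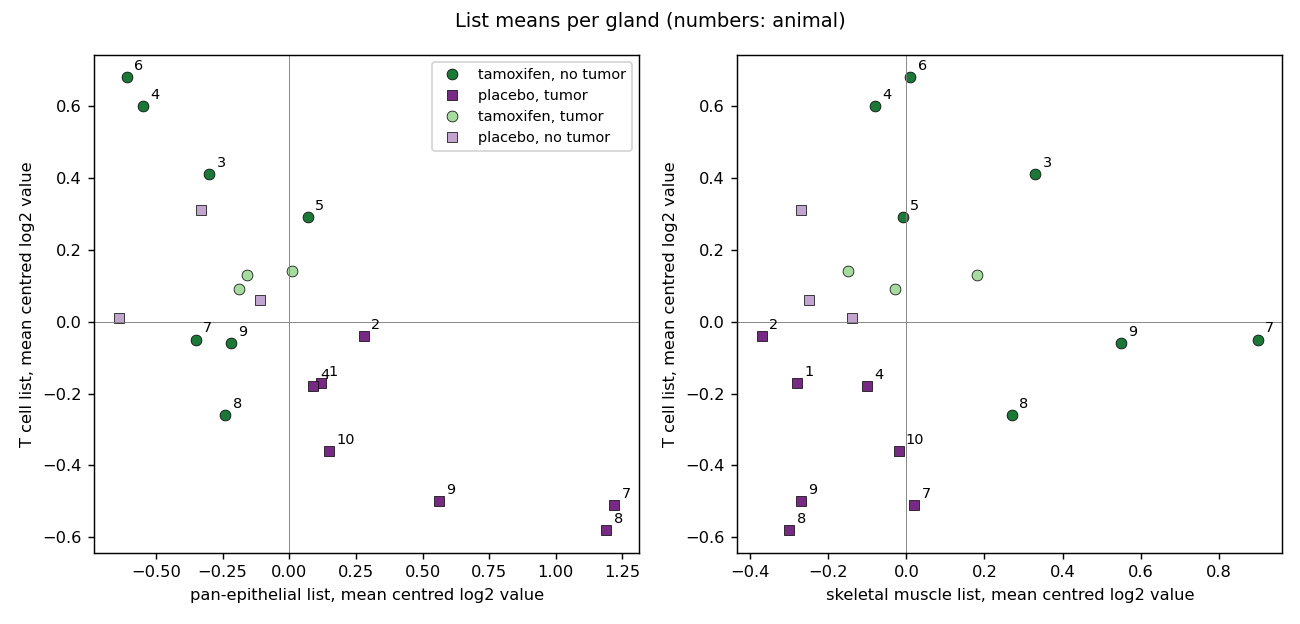
Mean centred log2 value of the T cell list (vertical axis) against that of the pan-epithelial list (left) and of the skeletal muscle list (right), 1 point per gland for all 20 glands. Numbers mark the 7 tamoxifen no-tumor animals (dark green) and the 7 placebo tumor animals (dark purple); tamoxifen animals 3 to 6 are high in the T cell list, animals 7 and 9 are highest in the muscle list, and placebo animals 7, 8 and 9 are lowest in the T cell list and highest in the pan-epithelial list.

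Several of the genes that rose belong to no cell type list. Akr1cl, an aldo-keto reductase, a family of enzymes that act on steroids and other carbonyl compounds, lay at 10.06, 11.76 and 12.57 in tamoxifen no-tumor glands and at 7.62, 7.9 and 8.78 in placebo tumor glands. The groups were far apart, with a difference of 3.66 (SE 0.3, 12.6-fold, adjusted p = 2.17e-06). Tamoxifen tumor glands lay at 8.31 to 9.55 and placebo no-tumor glands at 7.73 to 8.17, below every tamoxifen no-tumor gland. A relative of the same family, Akr1c13, rose by 0.35 (adjusted p = 0.0433). Nmu, the neuropeptide neuromedin U, lay at 6.84, 8.0 and 8.9 in tamoxifen no-tumor glands and at 5.74, 5.94 and 6.15 in placebo tumor glands (difference 1.99, SE 0.25, adjusted p = 0.000358). It lay at 6.09 to 6.59 in tamoxifen tumor glands and at 5.59 to 5.95 in placebo no-tumor glands, and no gland of the 3 other groups reached the filter level of 6.85. The difference of Nmu is thus in part fixed by the filter.

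Pcp4, a calmodulin-binding peptide of neurons, rose by 1.32, and the uncharacterized gene 1110017D15Rik by 0.99, both with no overlap and with values of at most 6.53 in the 3 other groups. Both passed the filter on dim genes only through the tamoxifen no-tumor glands, so that their differences are in part fixed by the filter. Il33, an alarmin cytokine stored in the nuclei of stromal and barrier cells, lay at 9.69, 10.06 and 10.46 in tamoxifen no-tumor glands and at 7.99, 9.22 and 9.24 in placebo tumor glands (difference 1.08, SE 0.19, adjusted p = 0.00356). Mreg, or melanoregulin, a protein of organelle transport, rose by 1.19, and Ampd3, an AMP deaminase, by 0.84, both with no overlap. Mmd2, a membrane protein of the progestin and adipoQ receptor family, rose by 1.75 with 2 of 7 tamoxifen no-tumor values inside the placebo tumor range. Agt, the precursor of angiotensin, Cyp4v3, a cytochrome P450, and Wfdc21, a small secreted protein with a whey acidic protein domain, rose by 0.94, 0.8 and 0.83. The p53 target Gadd45a rose by 0.6 and the glutamate dehydrogenase Glud1 by 0.26.

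Some genes of motile cilia were called, in a list chosen after values were seen. Of its 30 genes 10 passed the filter on dim genes, and 5 of the 10 rose, against 2.23% of all genes tested. The 5 genes called became 3 without placebo animal 8 or tamoxifen animal 5, and 2 without placebo animals 7, 8 and 9 together. Cfap126, a protein of the ciliary axoneme, lay at 8.04, 8.25 and 8.58 in tamoxifen no-tumor glands and at 7.6, 7.73 and 7.89 in placebo tumor glands (difference 0.53, SE 0.08, adjusted p = 0.000759). Pifo, which acts in the disassembly of primary cilia, rose by 0.44 and Tmem212 by 0.39. Ccdc40, an assembly factor of axonemes, and the adenylate kinase Ak7 rose by 0.23 and 0.22. Pifo had no value above 6.7 in the 3 other groups and passed the filter only through the tamoxifen no-tumor glands, so that its difference is in part fixed by the filter.

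No gene of the lists for oxidative phosphorylation, fatty acid oxidation and the citric acid cycle was called. In these lists 45 of 48, 17 of 18 and 18 of 19 differences were positive, with medians of 0.18, 0.29 and 0.2, against a median of 0.01 over all genes tested. Genes of a list were read from the same glands, so that these counts are not independent. The list means overlapped widely between the groups. They lay at -0.29 to 0.31, -0.47 to 0.46 and -0.43 to 0.41 in tamoxifen no-tumor glands. In placebo tumor glands they lay at -0.21 to 0.19, -0.41 to 0.32 and -0.28 to 0.28. The brown adipocyte list had a median of 0.45 over 11 genes, none called, with tamoxifen no-tumor glands spread from -0.96 to 0.7 in its mean against -0.96 to 0.57 in placebo tumor glands.

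**Figure D5:**
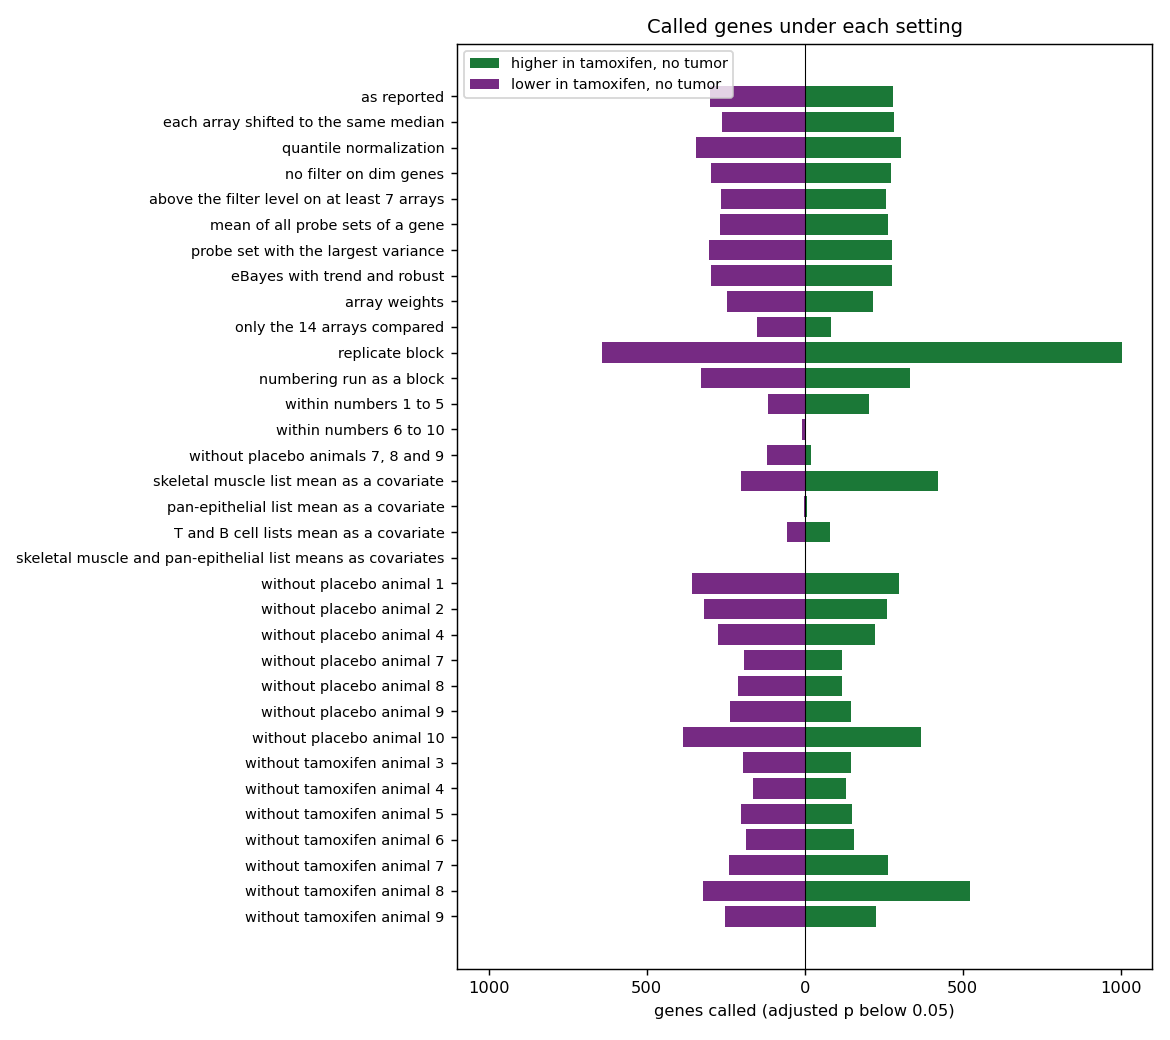
Genes called lower (left, purple) and higher (right, green) in tamoxifen no-tumor glands than in placebo tumor glands, as reported (top row) and under each other setting. Adding the pan-epithelial mean to the fit left 7 higher and 2 lower genes, and leaving out placebo animals 7, 8 and 9 left 20 higher and 121 lower.

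Calls changed when the mean of a cell type list entered the fit. With the mean of the pan-epithelial list as a covariate, 9 genes were called (0.072%), 7 higher (0.056%) and 2 lower (0.016%), among them Akr1cl at 3.44 (adjusted p = 0.00527), Nmu at 2.18, Pcp4 at 1.66, 1110017D15Rik at 1.06 and Cxcl15 at -2.92. Nmu, Pcp4 and 1110017D15Rik had entered the test only through the tamoxifen no-tumor glands, where they are high. None of the T cell, pan-epithelial, basement membrane, Wnt and Hedgehog genes was called in that fit, where the T cell list had a median of 0.27 and the Wnt list of -0.03. The pan-epithelial genes make up the covariate, so that their loss of calls was fixed in advance. This covariate separates the 2 groups itself, at -0.61 to 0.07 in tamoxifen no-tumor glands against 0.09 to 1.22 in placebo tumor glands, so that covariate and group overlap in that fit. With skeletal muscle adjusted for in the same way, 625 genes were called (5%). Of these, 422 were higher (3.38%) and 203 lower (1.62%), and 19 of 20 T cell genes and 12 of 15 B cell genes rose. With the mean of the T and B cell lists, 136 genes were called (1.09%), 81 higher (0.648%) and 55 lower (0.44%).

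The number of calls also changed with single animals. Without placebo animals 7, 8 and 9 together, 20 genes were called higher (0.16%) and 121 lower (0.968%). The T cell list then had a median of 0.42 and no gene called, with Cd3e at 0.35 (adjusted p = 0.0835), while 9 pan-epithelial, 5 basement membrane, 2 luminal progenitor, 2 Wnt and 1 Hedgehog genes were called. The 16 T cell genes called became 8 without tamoxifen animal 4, 9 without tamoxifen animal 3 or placebo animal 7 or 8, and 10 without tamoxifen animal 5 or 6. The 15 pan-epithelial genes became 9 without tamoxifen animal 4, and 10 without placebo animal 8 or tamoxifen animal 3 or 6. They became 11 without placebo animal 7 or 9, and 12 without tamoxifen animal 5, 7 or 9. Leaving out any other animal gave 14 to 17. The 5 Wnt genes became 2 when placebo animal 7 or 8, or tamoxifen animal 3 or 4, was left out, and 3 without tamoxifen animal 5. The 5 Hedgehog genes became 2 without placebo animal 8 or tamoxifen animal 4, and 3 when placebo animal 2, 4 or 9, or tamoxifen animal 3, 5 or 7, was left out. Among animals numbered 1 to 5 alone, 319 genes were called (2.55%), 204 higher (1.63%) and 115 lower (0.92%). Of these, 16 T cell and 8 B cell genes rose and no pan-epithelial gene was called. Among those numbered 6 to 10, 14 genes were called in all, 4 higher (0.032%) and 10 lower (0.08%), or 0.112% together, no T cell gene and 2 pan-epithelial genes among them. The T cell list had a median of 0.59 among numbers 1 to 5 and of 0.58 among numbers 6 to 10. The pan-epithelial list had medians of -0.45 and -1.32, and the B cell list of 0.75 and 0.21. Each of these 2 fits held fewer animals than the fit as reported. The difference between treatments in the effect of outcome was tested over all 4 groups as an interaction in limma, and no gene was called, with 565 at an unadjusted p below 0.05.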

How the data were processed

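RNA from 20 mammary glands, 1 array per animal, was hybridised as biotin-labelled cRNA to Affymetrix arrays, as the labels' protocols state. The deposited values are log2 expression values, which the submitters' processing notes credit to RMA. The sources used here name no software or version for RMA. The number of arrays limits the precision.

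Probe sets with 1 symbol in the platform table (34958 of 45101) were used, 34754 under a current symbol through Entrez ID. Several symbols (932) or none (9211) left a probe set out. Each of 18194 genes was read from its brightest probe set (mean of 20 arrays), and 12499 genes that passed 6.85, the overall median, on 3 or more arrays were tested. Groups came from the labels, and the fit used all 20 arrays in 4 groups with limma 3.58.1 in R 4.3.3 (lmFit, eBayes, two-sided, Benjamini-Hochberg). The fit was checked on simulated data. No batch is given in the labels.

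The lists and the groups compared were chosen with earlier results of these data known, and 7 lists were added to the first 56 after values were seen. Of 1197 listed genes, 938 were tested. A list mean is the mean of its members' centred log2 values. Lists are described by counts and medians, with no test. Genes were named when among the 15 largest positive or negative called differences outside the casein and muscle lists, among the 4 smallest p-values of one of the 56 lists, or called in a list with at most 5 calls. Chosen outside this rule, after values were seen, were Lalba, Cel, Kit, Pgr, Cldn7, Cdh1, Krt8, Krt18, Cldn3, Krt14, Grhl1, Irx2, Trps1, Cldn8, Scnn1b, Ano1, Gas1, Gli2, Gli3, Boc, Evc2, Lama2, Lamc3, Col4a5, Itga8, Mki67, Ccr7, Satb1, Cd3d, Cd3g, Cd8a, Cd8b1, Zap70, Ms4a1, Cd27, Skap1, Ikzf1, Ets1, Coro1a, Elane, Cfap126, Pifo, Tmem212, Ccdc40, Ak7 and Tnnc2.

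Alternatives covered scaling, filter, probe set, variance model, array weights, blocks, left-out animals and cell type covariates. Promoter windows came from RefSeq.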

Additional observations from a re-analysis of the deposited data

Results flagged for a closer look

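In 15 of 270 sets of 7 values (135 genes in 2 groups), 1 animal lay apart from the other 6 by Dixon's 95% criterion for the gap to the nearest animal. Chance alone flags about 1 in 20 such sets, a share like the one seen.

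Among tamoxifen no-tumor glands, animal 3 was lowest for Akr1cl (10.06, next 11.6) and for Prtn3 (8.76, next 10.37). Animal 5 was highest for Cldn8 (7.36), animal 8 lowest for Hmcn1 (5.71) and animal 4 lowest for Itga8 (6.69).

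Among placebo tumor glands, animal 7 was highest for Myh11 (9.82), Cnn1 (9.19), Hmcn1 (8.05) and Col4a5 (9.65) and lowest for Cd79a (8.73). Animal 8 was highest for Pdia6 (11.39) and Top2a (10.85, next 8.61) and lowest for Il33 (7.99, next 8.89). Animal 4 was lowest for Krt18 (10.75) and Krt19 (9.8).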

How the results depend on the processing

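In place of the 579 genes called as reported (279 higher and 300 lower in tamoxifen no-tumor glands), 233 (83 and 150) were called when only the 14 arrays were fitted, and 319 (204 and 115) among animals numbered 1 to 5. There were 14 (4 and 10) among animals numbered 6 to 10 and 141 (20 and 121) without placebo animals 7, 8 and 9. Adjusting for the pan-epithelial mean gave 9 (7 and 2), for the T and B cell lists 136 (81 and 55) and for the skeletal muscle list 625 (422 and 203). Adjusting for skeletal muscle and pan-epithelial means together gave 0 in limma, with 1309 genes at an unadjusted p below 0.05. Leaving out 1 animal gave 295 to 846 genes, 117 to 524 higher and 163 to 384 lower, fewest in all without tamoxifen animal 4 and most without tamoxifen animal 8. The cause was not tested. Scaling, filter, probe set, variance model, array weights and the run of numbers as a block kept all 3 counts over all genes within 1.5 times, though not the counts of every list. When only the 14 arrays were fitted, 7 of 19 basement membrane, 3 of 16 epithelial transcription factor, 2 of 25 Wnt and 2 of 11 Hedgehog genes fell.

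With the replicate number as a block, 1647 genes were called (1005 and 642). The fit as reported did not pair the samples by number. Of 10 same-numbered pairs, 4 had deviations that correlated above 0.1, and the 10 values ran from -0.101 to 0.586. Mean correlations of arrays were -0.022 within the same run of numbers and -0.075 between runs. Among the placebo arrays, 3 correlated best with their own number. These values do not settle whether the numbers pair the animals.

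Of 121 called genes looked at here, 77 stayed called whichever of the 14 animals was left out. The other 44 lost the call without at least 1 animal: Lalba, Cel, Wnt4, Krt8, Cldn3, Lamb3, Myh11, Cnn1, Grhl1, Gjb2, Erbb3, Stat5a, Fkbp11, Cxcl14, Fzd7, Gli2, Gli3, Boc, Pappa, Dll1, Tgfb3, Smad7, Lum, Col4a5, Fads1, Sox10, Egr2, S100b, Lrg1, Cd3d, Cd3g, Cd8a, Cd8b1, Ltb, Lta, Flt3, Ikzf1, Coro1a, Marco, Akr1c13, Wfdc21, Glud1, Ccdc40 and Ak7.

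The sign turned, with no call, for 10 genes with the pan-epithelial covariate: Wnt4 (0.1), Cldn7 (0.05), Cdh1 (0.04), Krt8 (0.12), Cldn3 (0.1), Lamb3 (0.09), Grhl1 (0.06), Gjb2 (0.01), Erbb3 (0.12) and Sox10 (0.17). With both covariates it turned for Wnt4 (0.1), Cldn7 (0.07), Krt8 (0.16), Cldn3 (0.09), Erbb3 (0.01), Pappa (0.01), Sox10 (0.12) and Akr1c13 (-0.02). Cldn7, Cdh1, Krt8 and Cldn3 are members of the pan-epithelial list, so that their values in these fits are in part fixed by the covariate. Zap70, not called as reported (adjusted p = 0.994), was called at 0.22 as the mean of its probe sets and at 0.41 on its most variable one. The deposited values carry no detection call, so genes near or below the filter level of 6.85 could not be called present or absent.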
